A study of Mus musculus with 6 samples.

Results

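The genes described here carry glucose into the cell, break it down to pyruvate and turn pyruvate into lactate that leaves the cell. They were 10 genes chosen by name out of 50600 in the count table: Slc2a1, Hk2, Hk3, Pfkl, Pfkp, Pfkfb3, Aldoa, Pkm, Ldha and Slc16a3. Each symbol matched 1 row, and all 10 passed the filter on low counts. RNA had been sequenced from macrophages of pancreatic islets and of epididymal white adipose tissue, the visceral fat beside the testis. Each tissue has 3 libraries, numbered 2, 4 and 6, and values per library follow that order throughout. The donors in either group were C57BL/6J males aged 12 weeks on chow, and the cells were sorted as live, CD45+, F4/80+ and CD64+. The submitters call the samples autologous, so an islet and a fat library with the same number were taken to come from the same animal. The sources used here do not say if animals were pooled for a library, so p-values measure the spread between these libraries. The comparison is islet against fat macrophages.

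In textbook outline, glucose enters through facilitative transporters of the Slc2a family and is trapped by hexokinases, phosphofructokinase commits it to glycolysis, and aldolase and pyruvate kinase act further down. Lactate dehydrogenase regenerates the cofactor that glycolysis consumes, and proton-linked monocarboxylate transporters export the lactate. Macrophages raise much of this pathway when stimulated or short of oxygen, in part through hypoxia-inducible factors, which bind the core letters ACGTG or GCGTG in DNA.

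Total counts ran from 4089980 to 9235591 per library, and the 10 genes together took 0.0918%, 0.0901% and 0.219% of them in islet and 0.0883%, 0.0825% and 0.0993% in fat. The genes of the sorted proteins were present in every library, with Adgre1 (F4/80) at 459 to 1066 CPM (counts relative to TMM-scaled library size), Ptprc (CD45) at 417 to 963 and Fcgr1 (CD64) at 53.1 to 106. Among other listed macrophage markers, Itgam was lower in islet (log2 -2.12 ± 0.30, SE; edgeR adjusted p = 0.00192), while Csf1r and Cd68 did not pass. Islet libraries 2, 4 and 6 differed widely in heat shock RNA, with 10.3%, 11.2% and 0.845% of counts from 10 listed genes against 0.268% to 0.297% in fat, while 11 immediate early genes took 0.214% to 0.834% in islet and 2.05% to 2.52% in fat. Beta cell markers took 0.655%, 0.427% and 0.288% of counts in islet, with all 7 genes detected, led by Ins2 and Ins1, and at most 0.000591% in fat, where Pdx1, Nkx6-1 and Slc2a2 had no count. The other islet hormone list (Gcg, Sst) took 0.0403% to 0.0681% in islet and at most 0.00152% in fat. Adipocyte markers took 0.0255%, 0.0179% and 0.00507% in fat, with all 5 detected and Fabp4 and Cidec highest, fibroblast markers (Col3a1, Dcn) 0.0426%, 0.0301% and 0.00949%, and endothelial markers (Cdh5, Pecam1) 0.0165%, 0.00642% and 0.0028%, while islet libraries held at most 0.00246% of any of these. The acinar, duct, red cell, neutrophil, T cell, B cell and dendritic cell lists stayed at or below 0.0057% in every library, with Cd3e, Cd3d and Trac, Cd79a, and S100a8, S100a9 and Ly6g at 0 in islet.

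Of the 10 genes, 3 rose in islet macrophages, 7 did not pass and 0 fell by quasi-likelihood testing in edgeR (adjusted p under 0.05, Benjamini-Hochberg, over 12152 genes). Over all genes tested, 8.97% rose and 10.5% fell. At an unadjusted p under 0.05 edgeR, DESeq2 and limma voom each had 4 higher and 0 lower, and DESeq2 and limma voom also called 3 higher and 0 lower after adjustment, where DESeq2 called 11.8% of all genes higher and 14.3% lower and limma voom 9.18% and 12.4%. With no filter 5 of the 10 were higher and 0 lower, against 6.52% and 8.24% of 22793 genes with any count. Many of those genes had failed the filter that all 10 passed, so these shares are not like for like. Blocked on animal, 3 of the 10 were higher and 0 lower, against 7.27% and 9.08% of all genes tested. The 3 genes were Slc2a1, Pkm and Aldoa. In 4 of the 10, these 3 and Hk2, every islet library lay above every fat library, which held for 18.2% of all genes, and in none of the 10 did every islet library lie below, which held for 22.3%. The median log2 difference, islet minus fat, was 0.59 over the 10 genes and 0.01 over all genes tested.

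**Figure D1:**
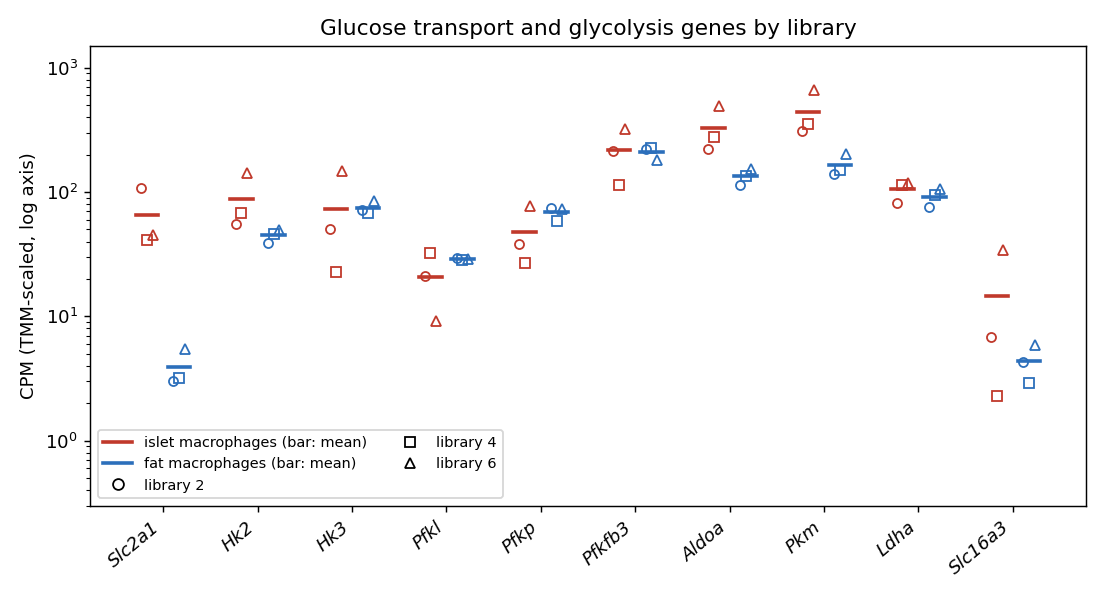
Level of each of the 10 genes in every library, in CPM on a log axis, with circles, squares and triangles for libraries 2, 4 and 6, red for islet, blue for fat and a bar for the mean of 3. Slc2a1 stands at 41.3 to 109 CPM in islet and 3.03 to 5.41 in fat, while islet library 6 tops 8 of the 10 genes among islet libraries.

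Promoters are shown for the 3 genes that rose and, for contrast, for Ldha, which did not pass and holds the most matches. The windows run from 250 bases before to 50 after a RefSeq start site in GRCm38.p6. All 10 genes matched by symbol, with 15 windows since 4 genes have more than 1, and for each gene shown the first window with a match was taken. This passed over window 1 of Aldoa and window 1 of Pkm, the only windows of the 10 genes without a match. They lie at chr4:119108495-119108794 (Slc2a1, plus strand), chr7:126799205-126799504 (Aldoa, minus strand), chr9:59656977-59657276 (Pkm, plus strand) and chr7:46845554-46845853 (Ldha, plus strand). Capitals mark ACGTG or GCGTG on either strand.
Slc2a1: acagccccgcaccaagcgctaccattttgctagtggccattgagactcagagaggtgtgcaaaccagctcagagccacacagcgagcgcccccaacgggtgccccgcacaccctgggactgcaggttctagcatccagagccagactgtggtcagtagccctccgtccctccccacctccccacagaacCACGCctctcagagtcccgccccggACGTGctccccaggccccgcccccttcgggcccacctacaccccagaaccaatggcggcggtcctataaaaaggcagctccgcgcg
Aldoa: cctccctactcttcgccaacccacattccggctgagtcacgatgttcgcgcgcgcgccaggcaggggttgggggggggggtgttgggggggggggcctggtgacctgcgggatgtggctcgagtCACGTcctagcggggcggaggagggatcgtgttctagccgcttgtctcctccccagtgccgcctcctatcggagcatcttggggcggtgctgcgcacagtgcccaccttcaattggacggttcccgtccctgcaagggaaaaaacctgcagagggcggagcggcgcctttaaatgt
Pkm: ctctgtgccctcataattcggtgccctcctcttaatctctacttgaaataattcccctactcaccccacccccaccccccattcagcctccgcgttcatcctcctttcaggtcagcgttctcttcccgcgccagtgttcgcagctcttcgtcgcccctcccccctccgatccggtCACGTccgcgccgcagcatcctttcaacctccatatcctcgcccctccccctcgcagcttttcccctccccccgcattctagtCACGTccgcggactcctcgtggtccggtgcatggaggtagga
Ldha: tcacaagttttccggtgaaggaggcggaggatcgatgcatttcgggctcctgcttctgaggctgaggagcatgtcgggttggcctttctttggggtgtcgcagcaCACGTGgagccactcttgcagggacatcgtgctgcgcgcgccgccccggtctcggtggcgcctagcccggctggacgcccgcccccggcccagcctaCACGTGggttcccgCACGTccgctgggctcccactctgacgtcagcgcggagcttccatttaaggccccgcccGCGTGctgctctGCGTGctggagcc

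Of the 15 windows 13 (86.7%) held ACGTG or GCGTG on either strand, against 43.8% of 32851 RefSeq promoter windows of the same length. Windows 2 and 3 of Aldoa overlap and hold the same match, so the windows are not independent. The windows of these genes were rich in G and C (median 65%, against 52.7% over all windows), and of all windows with at least 60% GC, a limit chosen after the windows were seen, 69.2% held a match, as did 11 of the 12 windows of these genes with that much GC. Ldha's window held 7 matches, 2 pairs of which are the palindrome CACGTG read on either strand, and Slc2a1's held 2, at 61 and 36 bases before the start site. The windows shown for Aldoa and Pkm held 1 and 2. Ldha was picked for its many matches, so its count does not stand for the genes that did not pass. Of the others that did not pass, Hk3 and Pfkl held 1 match, Hk2 and Slc16a3 held 2 and Pfkp held 4. The windows of Pfkfb3 held 1 and 4. A match is only a run of letters and shows no binding.

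Glucose entry showed the largest difference of the 10 genes. Slc2a1, the gene of the transporter GLUT1 (ENSMUSG00000028645.11, GRCm38 chromosome 4, 119108711 to 119137983, plus strand), stood at 109, 41.3 and 45.5 CPM in islet and at 3.03, 3.18 and 5.41 CPM in fat. The tissues did not overlap, and islet library 2, which held the most beta cell RNA, was the highest. The islet level of Slc2a1 was 16.8-fold that of fat (log2 4.07 ± 0.48, SE; edgeR adjusted p = 8.14e-04), at 65.2 ± 37.7 against 3.87 ± 1.33 CPM (SD, n = 3 per tissue). Within the same animal the islet level was 35.9, 12.96 and 8.41 times the fat level in numbers 2, 4 and 6. The call held with each single library left out (log2 3.48 to 4.38). With islet library 6 alone against fat the log2 difference was 3.47. Slc2a2, the main transporter of mouse beta cells, stood at 4.76, 1.89 and 1.03 CPM per kilobase of exon in islet, where Slc2a1 stood at 31.0, 11.8 and 12.99. The part of beta cell RNA in the Slc2a1 difference was not tested. In bulk libraries fewer cells of a type and less RNA per cell cannot be told apart.

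Of 12 other transporter genes 5 passed the filter, of which Slc2a5 rose, Slc2a9 fell and 3 did not pass, where 8.97% of all genes rose and 10.5% fell. Slc2a2, listed with the beta cell markers, is not among the 12 and had 218 counts in islet and 0 in fat. Slc2a5, a fructose transporter, stood at 2.87 to 3.77 CPM in islet and 0 to 0.471 CPM in fat (log2 3.67 ± 1.10, SE; edgeR adjusted p = 0.0474). Slc2a9, which carries urate, fell by 2.13 ± 0.60 on the log2 scale (edgeR adjusted p = 0.0364). Neither call was firm. Blocking on replicate number gave Slc2a5 an edgeR adjusted p = 0.123 and Slc2a9 0.0582, Slc2a5 missed the threshold without any 1 of the 6 libraries (edgeR adjusted p = 0.0531 to 0.205) and with no filter (0.0584), and Slc2a9 missed it without islet replicate 2 or 4 or any 1 fat library (0.0506 to 0.134). Slc2a3, the high-affinity transporter GLUT3, stood at 21.6, 30.7 and 8.35 CPM in islet against 5.88 to 8.13 CPM in fat and did not pass (edgeR adjusted p = 0.0715), although it did without islet replicate 6 (0.0039), in DESeq2 (0.0376) and in edgeR with no filter (0.021). Slc2a6 ranged from 0.573 to 55.5 CPM across islet libraries and Slc2a8 from 0 to 17.5 CPM (edgeR adjusted p = 0.278 and 0.957), and Slc2a6 was called higher with no filter (3.92e-04). Slc2a8 had no counts in islet library 6. Slc2a4, the insulin-responsive transporter of adipocytes and muscle, had no counts in islet and 0.118 to 0.851 CPM in fat and was not tested.

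Within the 5 transporter genes Slc2a1, Slc2a3, Slc2a6, Slc2a8 and Slc2a9, Slc2a1 held 82.7%, 53.9% and 40.4% of the counts per kilobase of exon in islet and 12.4%, 12.8% and 16.8% in fat. Slc2a5, called higher in islet, and Slc2a2, with 218 counts in islet and 0 in fat, were left out of these 5, and the urate carrier Slc2a9 was kept. Such a share does not depend on how libraries are scaled. The tissues did not overlap (exact two-sided permutation p = 0.1, the smallest that 3 against 3 allows, and 0.2 adjusted over the 10 shares tested).

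No hexokinase gene passed the test, while the shares of Hk2 and Hk3 in the family did not overlap between tissues. Hk2, an inducible isozyme that binds mitochondria (ENSMUSG00000000628.10, chromosome 6, 82725025 to 82774454, minus strand), stood at 55.6, 67.9 and 142 CPM in islet and at 39.0, 46.2 and 49.6 CPM in fat. Every islet library was above every fat library, but the difference did not pass (log2 0.98 ± 0.36, SE; edgeR adjusted p = 0.0946), and it was 0.45 without islet replicate 6. With no filter on low counts Hk2 was called higher (adjusted p = 0.0306). Hk3, a hexokinase found mostly in myeloid cells (ENSMUSG00000025877.14, chromosome 13, 55005985 to 55021385, minus strand), stood at 49.99, 22.9 and 148 CPM in islet and at 71.6, 68.1 and 84.3 CPM in fat. Islet libraries thus fell on either side of the narrow fat range, and the fitted difference was -0.01 ± 0.56 (edgeR adjusted p = 0.991). Without islet replicate 6 Hk3 was called lower (log2 -1.03, edgeR adjusted p = 0.0422). With islet library 6 alone against fat its log2 difference was 0.91. Hk1, the widely expressed isozyme, had a log2 difference of -0.17 ± 0.44 (edgeR adjusted p = 0.821), but was called lower without islet replicate 6 (adjusted p = 0.023).

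Of the hexokinase counts per kilobase, Hk2 held 33.2%, 51.0% and 31.8% in islet and 19.9%, 24.4% and 21.2% in fat, and Hk3 held 48.3%, 27.9% and 53.7% in islet and 59.2%, 58.2% and 58.5% in fat. Neither share overlapped between tissues (exact permutation p = 0.1 and adjusted p = 0.2 for each, n = 3 per tissue). Shares within a family add up to the whole, so the Hk2 and Hk3 results are not independent. The islet minus fat difference in mean share was 16.8 percentage points for Hk2 and -15.4 for Hk3, and 10.7 and -7.65 without islet replicate 4. In islet library 6 Hk2 and Hk3 were both at their highest CPM.

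The phosphofructokinase genes had lower mean levels in islet, and none passed the test. Pfkl (liver type; ENSMUSG00000020277.10, chromosome 10, 77986947 to 78010083, minus strand) stood at 20.96, 32.4 and 9.16 CPM in islet and at 29.2, 28.5 and 28.9 CPM in fat. Pfkp (platelet type; ENSMUSG00000021196.13, chromosome 13, 6579768 to 6648777, minus strand) stood at 38.3, 26.7 and 77.9 CPM in islet and 74.1, 58.5 and 73.2 CPM in fat. The islet values of either gene spanned the fat values, and in islet library 6 Pfkl was at its lowest and Pfkp at its highest. Neither passed (log2 -0.49 ± 0.42 and -0.52 ± 0.38, SE; edgeR adjusted p = 0.477 and 0.395). Pfkp was called lower without islet replicate 6 (log2 -1.08, edgeR adjusted p = 0.013). With islet library 6 alone against fat the log2 difference of Pfkl was -1.73. As shares of phosphofructokinase counts per kilobase, Pfkl held 50.3%, 60.3% and 17.5% and Pfkp 45.8%, 24.7% and 74.2% in islet, against 33.8% to 40.7% and 41.6% to 45.8% in fat. Pfkm, the muscle type, had a log2 difference of -1.78 ± 0.66 (edgeR adjusted p = 0.0961). It was called lower in DESeq2 (adjusted p = 0.0315) and without islet replicate 4 (edgeR, 0.0349). Of its exonic length, 10.2% is also annotated to Gm26513 on the same strand, which held 55.9% as many counts as Pfkm in islet and 11.2% in fat. Its share was 3.87% to 14.9% in islet and 17.7% to 23.6% in fat, without overlap (exact permutation p = 0.1). Of Pfkp's exonic length, 5.58% overlaps Pitrm1 on the opposite strand, and whether counting used strand is not known from the sources here.

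Pfkfb3, a bifunctional enzyme that makes the allosteric activator of phosphofructokinase (ENSMUSG00000026773.19, chromosome 2, 11471433 to 11554077, minus strand), did not differ detectably. It stood at 214, 115 and 320 CPM in islet and at 223, 228 and 182 CPM in fat, so the islet values lay on either side of the fat values (log2 0.04 ± 0.36, SE; edgeR adjusted p = 0.958). Its share of Pfkfb counts per kilobase was 64.9% to 87.7% in islet and 74.4% to 80.0% in fat. Pfkfb4, a related enzyme, had a log2 difference of -0.24 ± 0.25 (edgeR adjusted p = 0.571), and Pfkfb2 of -0.08 ± 0.80 (adjusted p = 0.957).

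Further down, Aldoa and Pkm rose. Aldoa, the main aldolase outside liver and brain (ENSMUSG00000030695.14, chromosome 7, 126795234 to 126800751, minus strand), stood at 221, 279 and 493 CPM in islet and at 113, 136 and 154 CPM in fat. The islet mean was 2.47-fold that of fat by the fit (log2 1.30 ± 0.34, SE; edgeR adjusted p = 0.027). Pkm, which encodes the muscle-type pyruvate kinases (ENSMUSG00000032294.17, chromosome 9, 59656368 to 59679375, plus strand), stood at 308, 354 and 658 CPM in islet and at 139, 150 and 204 CPM in fat. It was 2.68-fold higher (log2 1.42 ± 0.35; edgeR adjusted p = 0.0218), and gene counts do not separate its splice forms. The lowest islet library was above the highest fat library for either gene, and islet library 6 was highest. Within the same animal the ratios were 1.95, 2.06 and 3.20 for Aldoa and 2.22, 2.36 and 3.22 for Pkm in numbers 2, 4 and 6. Without fat replicate 2, 4 or 6 Aldoa missed the threshold (edgeR adjusted p = 0.141, 0.124 and 0.0821), as did Pkm (0.121, 0.118 and 0.0572), with log2 differences of 1.18 to 1.40 and 1.29 to 1.598. Aldoa held at least 98.6% of aldolase counts per kilobase in every library. Of Pkm's exonic length, 15.3% is also annotated to Gm49759 on the same strand. Gm49759 and Gm6560, whose transcripts match Pkm at 95% identity or more over at least 200 bases, together held 2.26% and 3.11% as many counts as Pkm in islet and fat.

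At the lactate step, the main subunit gene did not differ detectably while its partner rose. Ldha, the subunit that favours pyruvate reduction (ENSMUSG00000063229.15, chromosome 7, 46841475 to 46855627, plus strand), stood at 82.2, 115 and 118 CPM in islet and at 75.6, 94.5 and 106 CPM in fat, with the ranges overlapping (log2 0.19 ± 0.25, SE; edgeR adjusted p = 0.642). Ldhb, the heart-type subunit, stood at 11.7, 9.17 and 6.06 CPM in islet and at 1.61, 2.39 and 0.941 CPM in fat, 5.41-fold higher (log2 2.44 ± 0.60; edgeR adjusted p = 0.0218). Ldhb missed the threshold without islet replicate 2 or any 1 fat library (edgeR adjusted p = 0.0624 to 0.101). With islet library 6 alone against fat its log2 difference was 1.80. Ldha held 76.9%, 85.6% and 90.2% of their joint counts per kilobase in islet and 95.7%, 94.9% and 98.2% in fat (exact permutation p = 0.1, adjusted p = 0.2). The difference in mean share of Ldha was -12.0 percentage points, and -6.43 with counts not divided by length. The share of Ldhb was highest in islet library 2 and lowest in islet library 6, the same order as the beta cell marker share, whose part was not tested. Processed copies of Ldha held 3 counts in all.

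Slc16a3, the lactate exporter MCT4 (ENSMUSG00000025161.16, chromosome 11, 120948480 to 120960868, plus strand), varied more between islet libraries than any other of the 10 genes. It stood at 6.85, 2.29 and 34.2 CPM in islet and at 4.26, 2.92 and 5.88 CPM in fat. Islet library 4 was below every fat library, and library 6 far above. The difference did not pass (log2 1.75 ± 0.85, SE; edgeR adjusted p = 0.191). It was 0.09 without islet replicate 6 and passed without islet replicate 4 (log2 2.23, adjusted p = 0.0434) and with no filter on low counts (0.0152). Of the counts of Slc16a1, Slc16a3 and Slc16a7, not divided by length, Slc16a3 took 72.2% in islet library 6 (exact 95% binomial interval 67.2 to 76.8) and 3.33% in islet library 4 (1.45 to 6.46). The intervals cover counting error only. Slc16a1 and Slc16a7, exchangers of lactate and pyruvate, had log2 differences of -0.94 ± 0.47 and -1.47 ± 0.65 (edgeR adjusted p = 0.202 and 0.157). Without islet replicate 2 Slc16a1 was called lower (0.0391), and Slc16a7 was without islet replicate 4 or 6 (0.0332 and 0.0367), in limma voom (0.0302) and with no filter (8.93e-05). With islet library 6 alone against fat the log2 differences were -1.43 for Slc16a1 and -4.08 for Slc16a7. Slc16a7 stood at 30.6, 61.4 and 5.52 CPM in islet, all below the fat range of 86.0 to 91.2 CPM. Emb, an accessory protein of these transporters, fell by 1.33 ± 0.39 (edgeR adjusted p = 0.0432), but missed the threshold when blocked on replicate number (0.0682), without islet replicate 2 and without any 1 fat library (0.0828 to 0.169).

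**Figure D2:**
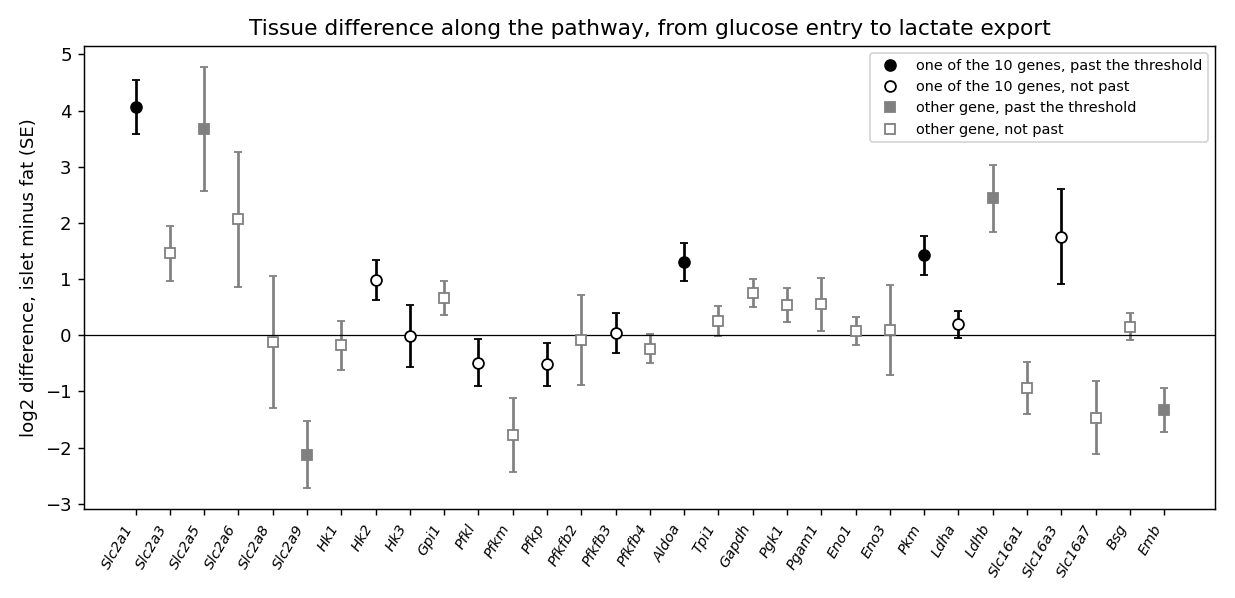
Log2 difference, islet minus fat, with its standard error for 31 genes in the order of the pathway, with circles for the 10 genes, squares for others and filled symbols for adjusted p under 0.05. Slc2a1 (4.07), Aldoa (1.30) and Pkm (1.42) are the filled circles, and the phosphofructokinase genes lie below 0.

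**Figure D3:**
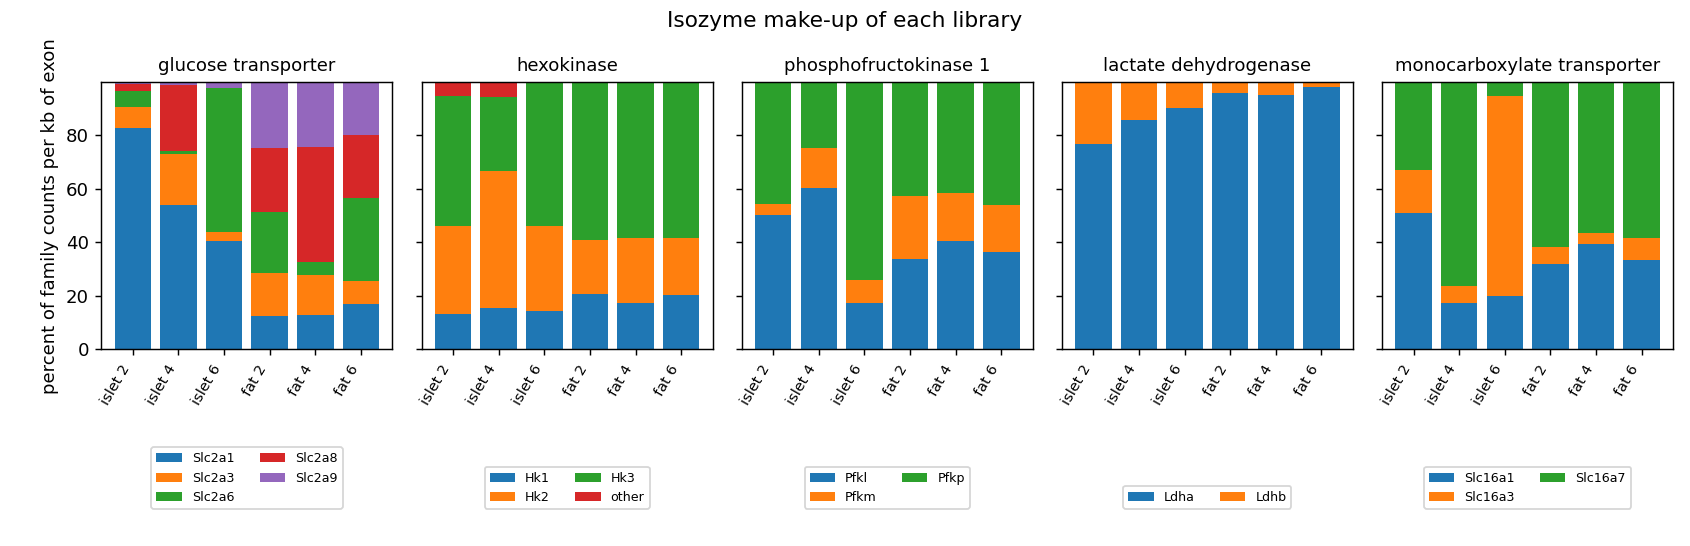
Make-up of 5 isozyme families in each library, as the percent of the family's counts per kilobase of exon, stacked by gene, with islet libraries on the left of each panel and hexokinase genes other than Hk1, Hk2 and Hk3 pooled. Slc2a1 takes 40.4% to 82.7% of its family in islet and 12.4% to 16.8% in fat, and Ldhb takes 9.78% to 23.1% and 1.84% to 5.06% of lactate dehydrogenase.

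Levels between genes were set side by side per kilobase of exon, with all annotated exons of a gene joined. That length can exceed the length of the transcripts expressed, so the order is only approximate. In fat macrophages the order was Aldoa (46.1 ± 7.02 CPM per kilobase, SD), Pkm (32.9 ± 6.99), Pfkfb3 (27.9 ± 3.33), Ldha (27.8 ± 4.596), Hk3 (20.3 ± 2.33), Hk2 (7.53 ± 0.91), Pfkp (5.12 ± 0.65), Pfkl (4.33 ± 0.05), Slc2a1 (1.10 ± 0.38) and Slc16a3 (0.818 ± 0.28). In islet macrophages Aldoa (114 ± 49.2) and Pkm (88.0 ± 38.1) again led, and Slc2a1 (18.6 ± 10.8) stood beside Hk3 (20.0 ± 17.9) and Hk2 (14.8 ± 7.84). Pfkp (3.55 ± 2.00), Pfkl (3.12 ± 1.74) and Slc16a3 (2.72 ± 3.25) were lowest in islet. Pfkfb3 and Ldha in fat, and the islet levels of Hk3, Slc2a1 and Hk2, lay within their spread of each other.

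The spread between libraries was itself uneven. The highest islet library stood 14.9 times above the lowest for Slc16a3, 6.45 times for Hk3, 3.54 times for Pfkl and 1.43 times for Ldha, while the same ratio in fat was 1.02 for Pfkl and at most 2.02, for Slc16a3. Over all genes tested the median ratio was 2.28 in islet and 1.42 in fat. Islet library 6, with the least heat shock RNA and the least beta cell RNA of the islet libraries, was the highest islet library for 8 of the 10 genes and the lowest for Pfkl, against 37.6% and 34.6% of all genes. The part of heat shock or of beta cell RNA in this was not tested. Without islet libraries 2 and 4, 6 of the 10 genes were called higher and 1 lower, where 14.4% and 20.4% of all genes were. That fit borrows the spread of the fat libraries for the lone islet one. The 6 were Slc2a1, Hk2, Hk3, Aldoa, Pkm and Slc16a3, and Pfkl was the gene called lower. Without fat replicate 2, 4 or 6 Slc2a1 alone was called, where 3.92%, 3.66% and 4.21% of all genes were higher and 4.71%, 5.39% and 5.96% lower. Without islet replicate 2 or 4 there were 3 and 4 higher and 0 lower, against 5.8% and 10.8% of all genes higher and 8.39% and 11.7% lower. Without islet replicate 6 there were 3 higher and 2 lower, Hk3 and Pfkp, against 12.7% and 15.6%.

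**Figure D4:**
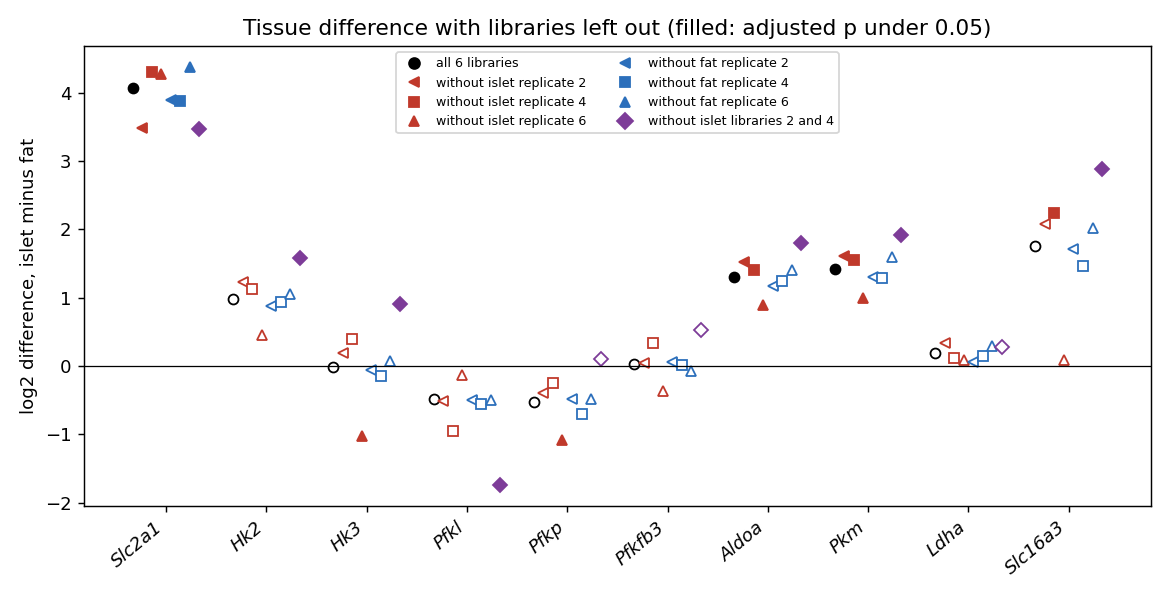
Log2 difference, islet minus fat, of the 10 genes with all 6 libraries (black), without 1 islet library (red), without 1 fat library (blue) and without islet libraries 2 and 4 (purple), filled where adjusted p is under 0.05. Slc2a1 stays between 3.47 and 4.38, Hk3 runs from -1.03 to 0.91 and Slc16a3 from 0.09 to 2.89. The purple fit leaves 1 islet library, so its filled symbols rest on the spread of the fat libraries.

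Most other enzymes of glycolysis did not pass. Of 22 listed, 12 passed the filter, of which Ldhb rose and 11 did not pass, with a median log2 difference of 0.26. Gapdh stood at 245, 270 and 252 CPM in islet, above its fat range of 112 to 177 CPM (log2 0.75 ± 0.25, SE; edgeR adjusted p = 0.0723). DESeq2 and limma voom called it higher (adjusted p = 0.0294 and 0.0471), as did edgeR without islet replicate 6 (0.0435). Gapdh has 92 near-identical annotated copies, whose counts came to 1.37% and 3.2% of its own in islet and fat. Eno1, Tpi1, Pgk1 and Gpi1 had log2 differences between 0.07 and 0.66. Across all 9 lists of neighbouring genes, 90 of 117 members were tested, 7 rose (7.78%), 8 fell (8.89%) and the median log2 difference was 0.09. These shares are close to those of all genes.

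Where pyruvate enters mitochondria, Pdk4, a kinase that switches off pyruvate dehydrogenase, fell from 52.5, 41.4 and 49.1 CPM in fat to 2 counts in all islet libraries together. The ratio of pooled rates was 383, with a 95% counting interval of 106 to 3165 (edgeR adjusted p = 1.36e-04). The other 13 genes of that list did not pass, among them the kinases Pdk1, Pdk2 and Pdk3 and the pyruvate carrier gene Mpc2. Mpc1, the partner of Mpc2, lay just outside the threshold, at 22.6, 24.1 and 34.1 CPM in islet and 12.2, 12.6 and 15.8 CPM in fat without overlap (log2 0.996 ± 0.31, SE; edgeR adjusted p = 0.0522). Of 4 tested genes of glucose synthesis, G6pc2, the islet form of glucose-6-phosphatase, stood at 73.4, 22.6 and 21.8 CPM in islet and had no counts in fat, at least 114-fold higher when fat is set to the floor of 3 counts in each library (edgeR adjusted p = 0.00109). G6pc2 is a beta cell gene, and its highest level was in islet library 2, which held the most beta cell RNA. The part of beta cell RNA in the G6pc2 difference was not tested. Pck1, which also serves glyceride synthesis in adipocytes, stood at 8.42, 14.2 and 4.47 CPM in fat and had no counts in islet, at least 14.5-fold lower (edgeR adjusted p = 0.00427). The adipocyte marker share was lowest in fat library 6 as well, and the part of adipocyte RNA was not tested. Of 13 tested genes of glycogen turnover, Ppp1r3b, which brings a phosphatase to glycogen, rose (log2 1.80 ± 0.41; edgeR adjusted p = 0.0157), but not without fat replicate 4 or 6 (0.0846 and 0.0689).

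Of 16 tested regulators of glucose use and growth, 0 rose, 2 fell (12.5%, against 10.5% of all genes) and 14 did not pass. Txnip, a glucose-induced protein that restrains glucose uptake, stood at 311, 370 and 65.7 CPM in islet and at 942, 1189 and 1092 CPM in fat, 4.32-fold lower without overlap (edgeR adjusted p = 0.0295). It missed the threshold without islet replicate 2 or any 1 fat library (0.0712 to 0.0884). Mlxip, a glucose-sensing transcription factor known to drive Txnip, stood at 96.2, 75.7 and 50.3 CPM in islet and at 302, 223 and 262 CPM in fat (log2 -1.83 ± 0.30; edgeR adjusted p = 0.00356). Those that did not pass included Myc, Akt1, Mtor and the energy sensor Prkaa1. In the list of hypoxia-inducible factors and their targets, 3 of 19 tested genes rose (15.8%, against 8.97% of all genes), 2 fell (10.5%, as in all genes) and 14 did not pass. Vhl, whose product marks these factors for destruction, was 6.05-fold higher (log2 2.60 ± 0.43; edgeR adjusted p = 0.00374). Mxi1 and P4ha1 rose by 1.21 and 1.30 on the log2 scale (edgeR adjusted p = 0.0174 and 0.0287). Mxi1 missed the threshold without any 1 fat library (0.0563 to 0.11). P4ha1 missed it without islet replicate 2 or any 1 fat library (0.0854 to 0.127). Arnt, the shared partner subunit, fell by 0.82 and Epas1 by 2.88 on the log2 scale (edgeR adjusted p = 0.026 and 0.0279), and neither passed when blocked on replicate number (0.0605 and 0.0677). Arnt was lost too without islet replicate 2 or any 1 fat library (0.0732 to 0.117). Epas1 was lost without islet replicate 2 or 4 or fat replicate 2 or 4 (0.0514 to 0.129) and in limma voom (0.0875). Without islet libraries 2 and 4, which leaves 1 islet library, the log2 difference was 0.40 for P4ha1 and -2.02 for Epas1. Epas1 stood at 92.5, 47.4 and 16.2 CPM in fat, in the order of their endothelial marker shares, whose part was not tested. Hif1a had a log2 difference of 0.53 ± 0.26 (edgeR adjusted p = 0.199), and the targets Vegfa, Bnip3 and Egln1 did not pass. Kdm3a lay just outside the threshold and was lower in islet without overlap (log2 -0.83 ± 0.26, SE; edgeR adjusted p = 0.0518). In this list every islet library lay above every fat library for 3 tested genes and below for 4.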

How the data were processed

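The authors deposited raw gene counts in 1 table. Reads had been made from 10 ng of total RNA with a stranded total RNA kit, per the labels' protocols, and the submitters' processing notes name STAR, featureCounts, Subread 1.6.4 and GRCm38. The sources used here name no annotation and no strand option. From these counts, edgeR 4.0.16 (R 4.3.3) gave TMM-scaled CPM, filtered low genes with filterByExpr and fitted a robust quasi-likelihood model on tissue alone over all 12152 genes left. P-values were Benjamini-Hochberg adjusted over those genes at a threshold of 0.05, and SE is the log2 difference over the root of F. Exon lengths and coordinates came from GENCODE M21 on GRCm38, where 99.56% of gene IDs were found, and promoters from RefSeq. Isozyme shares were compared by exact two-sided permutation (scipy 1.17.1), and near-identical transcripts were sought with blastn 2.17.0. Scripts were tested on simulated data.

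Named were the 10 genes and the tested genes of their isozyme families. In each pathway list the 2 genes with the smallest adjusted p in each direction were named. The 2 highest genes were named for the beta cell, other islet hormone, adipocyte, fibroblast and endothelial lists. Other marker genes named were those of the sorted proteins, genes without counts in a tissue, and Itgam, Csf1r and Cd68. Others, such as P4ha1, Slc2a4 and those given as not passing, were added after their values were seen. The genes and lists were chosen with earlier results of these data known. The numbering was taken to pair libraries of 1 animal because the submitters call the samples autologous. Deviations from the tissue means correlated at 0.0441, 0.0733 and 0.00214 between equal numbers and at -0.14 to 0.101 between unequal ones. Other settings tried were DESeq2 1.42.0, voom in limma 3.58.1, upper-quartile or RLE scaling, other filters, the replicate block, and removal of gene classes or of libraries.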

Additional observations from a re-analysis of the deposited data

How the results depend on the processing

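Of the 10 genes, 3 were called higher and 0 lower. Dropping islet libraries 2 and 4 leaves 1 islet library, so calls from that fit are not listed here. With no filter 5 were higher, and without any 1 library there were 1 to 4 higher and 0 to 2 lower. The low end is without any fat library and the 2 lower genes (Hk3, Pfkp) are without islet replicate 6. Of the neighbouring pathway genes 7 were called higher and 8 lower; DESeq2 gave 11 higher, the replicate block 4 lower, leaving out islet libraries 2 and 4 gave 13 higher and 18 lower, and leaving out any 1 library 2 to 12 higher and 3 to 12 lower. With the replicate block 3 of the 10 genes were higher and 0 lower, and of 25 other genes recomputed with it, the calls of Slc2a5, Slc2a9, Emb, Arnt and Epas1 were lost and the others kept their side of the threshold. Some differences that had not passed changed sign. Hk3 had a log2 difference of 1.6e-04 with a filter of 1 CPM, 0.91 without islet libraries 2 and 4 and -1.03 to 0.40 without any 1 library. Pfkfb3 had -0.014 with RLE factors and in DESeq2, -0.0064 with upper-quartile factors, -0.080 in limma voom, -0.012 with no filter, -0.075 with the replicate block, -6.8e-05 without ribosomal RNA and mitochondrial genes and -0.36 to 0.34 without any 1 library. Without islet libraries 2 and 4 Pfkp had 0.10 and Hk1 0.58, and that setting moved the median of all genes by -0.11. Without any 1 library the range was -0.924 to 0.0860 for Hk1, -0.73 to 0.28 for Pfkfb2, -0.38 to 2.75 for Slc2a6 and -2.17 to 0.48 for Slc2a8. The cause was not tested. Of 170 combinations of gene and setting for the 10 genes, those without islet libraries 2 and 4 included, 141 kept their direction and side of the threshold. The islet minus fat difference in mean share, in percentage points, ran over single libraries left out from 33.1 to 54.3 for Slc2a1, 10.7 to 20.2 for Hk2, -20.5 to -7.65 for Hk3 and -15.0 to -8.36 for Ldha. For Slc16a3 it was 26.0 with all libraries and 4.95 without islet replicate 6, and those of Pfkl, Pfkp and Pfkfb3 changed sign (-3.01 to 18.4, -8.09 to 16.7 and -3.64 to 7.78). With 3 libraries a tissue, no permutation test can go below 0.1.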
